A study of Rattus norvegicus with 8 samples.

Results

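The genes described here are Hras and Nras, which encode Ras GTPases, Braf, which encodes a kinase activated by Ras, Met, which encodes the receptor of hepatocyte growth factor, and Dusp6, Dusp4, Spry2, Spry4 and Etv4, whose transcription is induced by ERK signalling. The members were the probes, control spots excluded, whose transcript accession belonged to 1 of these 9 genes in RefSeq. In all, 7 of the 24684 probes on the Arraystar rat lncRNA array met this rule, and they covered 6 of the 9 genes. Hras had 2 probes, for transcripts NM_001098241 and NM_001130441, and Nras (NM_080766), Met (NM_031517), Dusp6 (NM_053883), Spry2 (NM_001012046) and Spry4 (NM_001106150) had 1 each. No probe was matched to Braf, Dusp4 or Etv4, and these 3 genes were not analysed here. Each member probe was printed in 1 spot.

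The arrays held RNA from 3 lung tumors and 3 normal lung tissues of male F344 rats treated with NNK, a nitrosamine of tobacco smoke that causes lung tumors in rodents, and from a blood clot of 1 control rat and of 1 rat given NNK, all collected at week 95. The normal lung therefore came from NNK-treated rats as well and was described as matched to the tumors, which were moderately differentiated adenocarcinomas in the methods of the study. For the NNK blood array 1 label field carried the text of lung tumor 3, but the 3 other fields gave blood, which was taken as its tissue. The comparisons ask which transcripts differ between tumor and matched lung, and between the blood of NNK-treated and control rats.

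Growth factor receptors such as Met switch Ras proteins to their active form, and active Ras starts the kinase cascade from RAF through MEK to ERK. ERK then induces genes that restrain the same cascade, including Sprouty proteins, which act between the receptor and RAF, and MAP kinase phosphatases such as Dusp6, which removes phosphate from ERK in the cytoplasm. Activating mutations of Ras genes are a known event in chemically induced lung tumors of rodents, and the arrays measured RNA level, not mutation or activity of the proteins.

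The 250 bases before the transcription start of the 2 measured Ras genes and of the second annotated start of Spry2 are shown. These are 2 Ras genes and a Sprouty gene that the text compares, and each holds at least 1 of the motifs described. The window of Spry4 also holds such motifs and is not shown. The sequences are from RefSeq (GRCr8), read 5′ to 3′ on the strand of the gene, and capitals mark the ETS core CCGGAA, a motif of the factors through which ERK acts on transcription, and the GC box GGGCGG, on either strand.
Hras, chr1:205729255-205729504, minus strand: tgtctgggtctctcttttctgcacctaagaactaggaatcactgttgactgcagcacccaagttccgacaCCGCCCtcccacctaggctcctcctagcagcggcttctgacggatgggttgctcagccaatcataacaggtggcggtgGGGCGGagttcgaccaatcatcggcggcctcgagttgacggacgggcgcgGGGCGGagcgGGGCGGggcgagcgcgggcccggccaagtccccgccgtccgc
Nras, chr2:193271220-193271469, plus strand: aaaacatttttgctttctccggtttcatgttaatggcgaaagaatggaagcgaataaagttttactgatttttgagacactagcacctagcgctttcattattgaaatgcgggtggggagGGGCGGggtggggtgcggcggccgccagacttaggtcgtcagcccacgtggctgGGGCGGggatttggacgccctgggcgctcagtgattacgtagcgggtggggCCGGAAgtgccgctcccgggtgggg
Spry2, chr15:89111927-89112176, minus strand: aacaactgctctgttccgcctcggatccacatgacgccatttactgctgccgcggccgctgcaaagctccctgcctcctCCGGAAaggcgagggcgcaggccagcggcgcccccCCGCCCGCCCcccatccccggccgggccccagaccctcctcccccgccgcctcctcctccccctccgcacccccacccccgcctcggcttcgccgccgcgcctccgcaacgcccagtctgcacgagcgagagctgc

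The motifs were chosen after the expression values were seen, and 4 were searched on both strands of 33469 promoter windows of the same length. CCGGAA was found in 12.6% of all windows. Among the members with a probe it lay 25 bases before the start of Nras, 171 bases before the second start of Spry2 and, on the minus strand, 81 bases before the start of Spry4, and it was not in the windows of Hras, Met, Dusp6 or the first start of Spry2. GGGCGG was found in 30.5% of all windows, 4 times in that of Hras, 2 times each in those of Nras and the second start of Spry2, where the pair overlaps, and 1 time in that of Spry4. TGAGTCA, the AP-1 motif, was in 4.05% of all windows and in none of these genes, and TGACGTCA, the cyclic AMP response element, was in 1.59% of all windows and in none of the windows of members with a probe. The G and C content was 65.6% for Hras, 57.2% for Nras, 61.6% and 74.8% for the first and second start of Spry2, 55.6% for Dusp6, 54.8% for Spry4 and 42.0% for Met, against a median of 51.2% over all windows.

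For each array the authors deposited background-subtracted spot intensities. Their log2 values were quantile-normalized over the 6 lung arrays, which gives every array the same distribution, and a probe was kept where its signal was well above background on at least 3 of them. The groups were compared with limma, and a gene was called higher or lower at a fold change of at least 2 with a Benjamini-Hochberg adjusted p of at most 0.05 over all 12471 probes tested. Counts of genes that rose or fell are counts of these calls, so that a smaller difference with an adjusted p under 0.05 is not among them. All tests were two-sided. Levels of different probes were not set against each other, since each binds its target with its own strength. In bulk tissue, fewer cells of a type and less RNA per cell cannot be told apart.

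Some properties of the arrays bear on every value. Blood arrays were dimmer than lung arrays, with 75th percentiles of the processed signal of 95.4 (control) and 205.8 (NNK) against 1191 to 1329. By scan time and array position, tumor 1 shared a slide with the 3 normal tissues, and tumors 2 and 3 shared another. A value within slide 1 thus sets tumor 1 alone against the 3 normal tissues and is given as a difference with no test. Over probes printed in 3 spots, the mean squared difference between 2 normal lung arrays was 0.82 to 1.38 times what replicate spots of a probe would give, and between tumor arrays 2 and 3 it was 0.58 times, while tumor array 1 differed from these 2 by 6.32 and 6.52 times and a normal and a tumor array differed by 24.0 to 34.0 times. Since the normal arrays, and tumor arrays 2 and 3, differed by about or less than the spread between spots, the lung differences of the members, and the calls of the pathway genes named, are also given with these arrays counted once, which leaves 1 normal and 2 tumor samples. The p values measure only the spread between these samples, which may be technical. Outlier marks of the scanner software, which removed a spot from the test, took 15.9% to 25.3% of well-detected spots on tumor arrays and 4.92% to 8.62% on normal arrays.

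Of the members, Spry4 and Hras were called lower in lung tumor and none was called higher, against 15.5% of all probes called lower and 13.5% called higher. Spry4 fell 4.66-fold and Hras fell 2.35-fold by its probe for NM_001098241. The differences of Nras (-0.47 on the log2 scale), Met (0.76), Dusp6 (0.32) and Spry2 (0.06) were under 2-fold. Each of the 7 probes had signal well above background on every lung array. At an adjusted p of 0.05 alone, with no fold threshold, 65.1% of all probes tested passed, so an adjusted p under 0.05 was common among all genes.

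**Figure D1:**
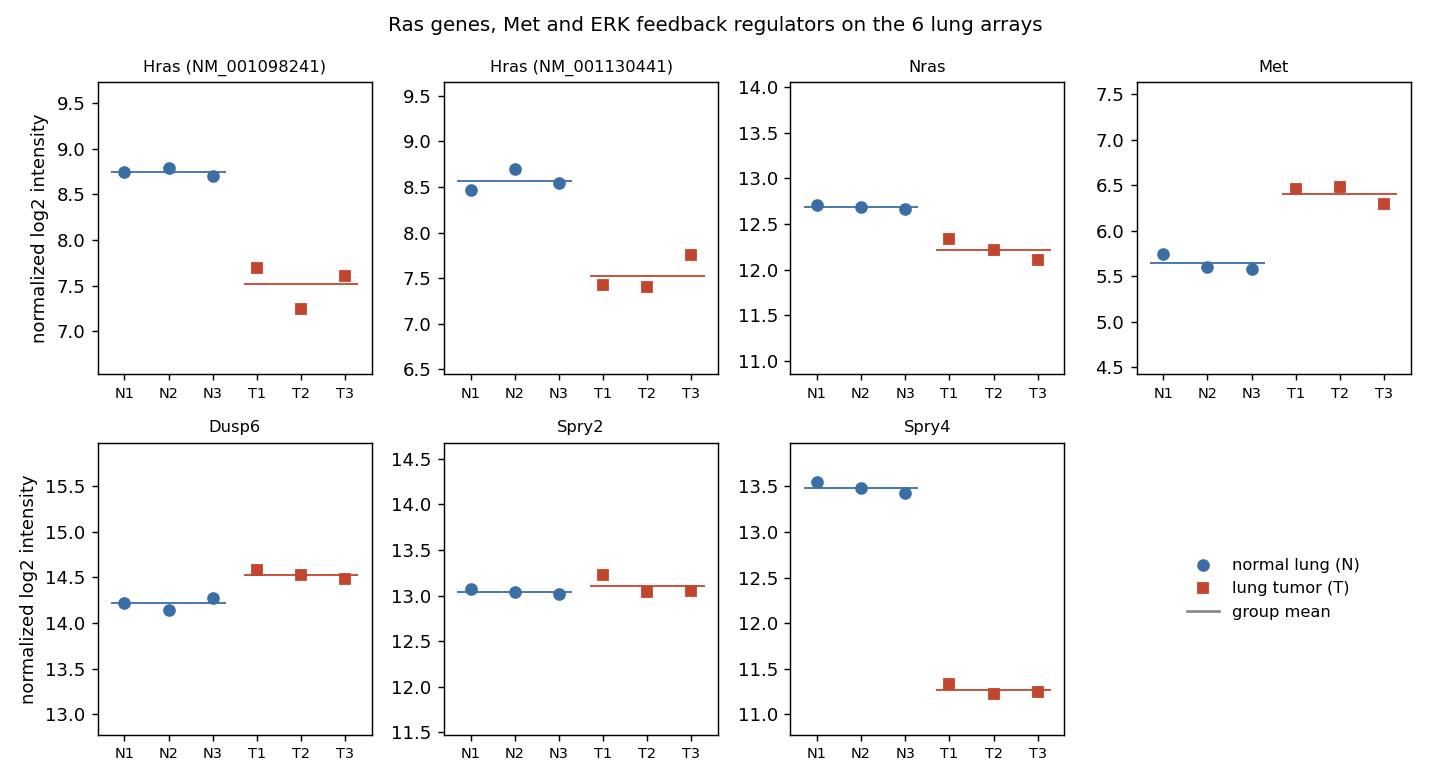
Normalized log2 intensity of the 7 member probes on the 6 lung arrays, with blue circles for normal lung, red squares for lung tumor, lines for group means and the same vertical span in every panel. The 3 tumor values of Spry4 lie between 11.22 and 11.33 and its normal values between 13.42 and 13.55.

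Spry4 encodes a Sprouty protein that restrains receptor signalling to ERK. Its normalized log2 signal was 13.55, 13.49 and 13.42 in normal lung 1 to 3 and 11.33, 11.22 and 11.24 in lung tumor 1 to 3. The groups lay far apart and the values within each group were close together. The means were 13.48 ± 0.06 (SD, n = 3) in normal lung and 11.27 ± 0.06 (SD, n = 3) in tumor, a log2 difference of -2.22 (SE 0.06, limma adjusted p = 6.7e-06). With near-identical arrays counted once the difference was -2.20 (limma adjusted p = 0.040), and within slide 1, where tumor 1 was set against the 3 normal arrays, it was -2.15. Spry4 kept its call when any lung array was left out.

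Spry2, the other Sprouty gene measured, showed no such difference. Its log2 signal was 13.07, 13.04 and 13.02 in normal lung 1 to 3 and 13.22, 13.04 and 13.05 in lung tumor 1 to 3. The groups overlapped, with tumor 1 highest. All 3 tumor spots carried an outlier mark, so Spry2 was not tested in the main comparison and these values keep the marked spots. On that basis the log2 difference was 0.06 (SE 0.07, limma adjusted p = 0.46), and with near-identical arrays counted once 0.09 (limma adjusted p = 0.78). It was 0.18 within slide 1 and -0.11 when the arrays were scaled by their 75th percentile.

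Dusp6, the ERK phosphatase, also lost tumor spots to outlier marks, 2 of the 3. With these kept, its log2 signal was 14.22, 14.15 and 14.28 in normal lung 1 to 3 and 14.58, 14.53 and 14.48 in lung tumor 1 to 3. Every tumor value lay above every normal value. The difference was 0.32 on the log2 scale (SE 0.06, limma adjusted p = 0.0061), a 1.24-fold higher mean, and thus under the fold threshold. With near-identical arrays counted once it was 0.33 (limma adjusted p = 0.33), and scaling by the 75th percentile gave 0.12 (limma adjusted p = 0.24), so that the difference did not pass the test under either.

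Hras was measured by both of its probes. The probe for NM_001098241 gave log2 signals of 8.74, 8.79 and 8.70 in normal lung 1 to 3 and 7.69, 7.25 and 7.60 in lung tumor 1 to 3. The probe for NM_001130441 gave 8.46, 8.70 and 8.54 in normal lung and 7.42, 7.40 and 7.76 in tumor. On both probes every tumor value was lower than every normal value, and the tumors varied more among themselves than the normal tissues did. The log2 differences were -1.23 (SE 0.13, limma adjusted p = 0.00054) and -1.04 (SE 0.13, limma adjusted p = 0.0010). Both share their source RNA and target gene and are therefore not independent measurements of the change.

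The call of Hras was less firm than that of Spry4. With near-identical arrays counted once, the differences were -1.19 and -1.07 with limma adjusted p of 0.078 and 0.077, so that neither probe was called. Within slide 1 they were -1.05 and -1.14. The probe for NM_001130441 lay close to the 2-fold threshold and dropped under it without normal lung 2 (-0.97), tumor 1 (-0.99) or tumor 2 (-0.98). The probe for NM_001098241 kept its call when any lung array was left out. Its difference also came close to the threshold under other settings. It was -1.07 with the arrays scaled by their 75th percentile and -1.004 with the authors' normalized values.

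Nras, the other Ras gene with a probe, gave log2 signals of 12.71, 12.69 and 12.66 in normal lung 1 to 3 and 12.33, 12.21 and 12.11 in lung tumor 1 to 3. The tumor values were all below the normal values, by less than in Hras. The log2 difference was -0.47 (SE 0.07, limma adjusted p = 0.0028), and with near-identical arrays counted once it was -0.44 (limma adjusted p = 0.25).

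Met gave log2 signals of 5.75, 5.61 and 5.58 in normal lung 1 to 3 and 6.46, 6.48 and 6.29 in lung tumor 1 to 3. Each tumor value was higher than each normal value. The log2 difference was 0.76 (SE 0.08, limma adjusted p = 0.00065), a 1.69-fold higher mean that was under the fold threshold. It was 0.77 with near-identical arrays counted once and 0.81 within slide 1. The size depended on the processing, with 0.37 under the normexp background correction and 0.99 under scaling by the 75th percentile.

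**Figure D2:**
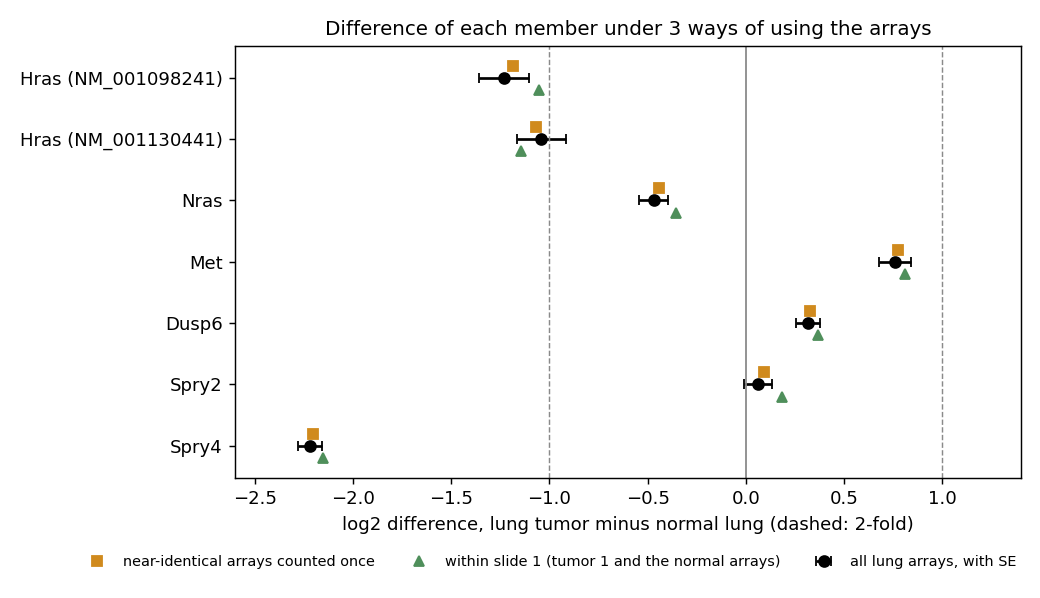
Log2 difference between lung tumor and normal lung for each member probe with all lung arrays (black circles, bars are the SE), with near-identical arrays counted once (orange squares) and within slide 1 (green triangles), dashed lines marking 2-fold. Spry4 lies between -2.22 and -2.15 under all 3, while both Hras probes lie near the 2-fold line.

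The wider pathway was described by 8 lists of other genes, from receptors to ERK targets, chosen by their role. Of 124 genes 107 had a probe and 71 were tested, of which 10 were called higher and 15 lower, with a median log2 difference of -0.12 against 0.07 over all probes tested, of which 13.5% were called higher and 15.5% lower. With near-identical arrays counted once, where 82 could be tested, 4 were called higher and 8 lower, and of the genes named below Egfr (limma adjusted p = 0.093), Ros1 (0.066), Map3k8 (0.055), Dusp10 (0.17), Dusp14 (0.070), Ets1 (0.055) and Spp1 (0.27) lost their call. The genes named from these lists were chosen for the largest called rises and falls, and their limma adjusted p lay between 3.9e-06 (Tek) and 0.016 (Spp1) with all lung arrays. The order of size covers only genes with enough unmarked spots. With marked spots kept, the receptor gene Fgfr2 (1.26) and the ERK-induced genes Areg (2.53) and Etv1 (-2.35) differed by more than a gene named for its list.

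Of the 14 receptor tyrosine kinases tested, 2 were called higher and 6 lower, with a median of -0.49. The called rises were those of Egfr, the receptor of epidermal growth factor (log2 difference 1.19), and Ros1, a receptor of the lung epithelium (1.13). The largest falls were those of Tek, the angiopoietin receptor of endothelial cells (-2.74), and Igf1r, the receptor of insulin-like growth factor 1 (-2.72). With the normexp background correction the difference of Egfr was 0.56 and it was not called.

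In the list around Met and its ligand, 1 of the 5 genes tested was called higher and none lower, with a median of 0.35. The gene called higher was Hpn, which encodes hepsin, a membrane protease able to activate the precursor of hepatocyte growth factor (from 11.22 to 11.38 in normal lung and from 13.77 to 13.96 in tumor, log2 difference 2.57). The ligand gene Hgf differed by 0.35 on the log2 scale and was not called.

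Between receptor and kinase cascade, none of the 8 adaptors and exchange factors and none of the 4 other Ras GTPases tested was called. Of the 5 Ras GTPase-activating proteins tested, which return Ras to its inactive form, 2 were called higher, Rasa2 (log2 difference 2.59) and Rasal1. Rasal1 was not well above background on any normal array, so that it passed the filter only through the tumor arrays and its fold is given as a bound, at least 1.43-fold higher in tumor, which does not reach the 2-fold threshold. Its call rests on normal values below background. With the normexp correction the difference of Rasa2 was 0.80 and that of Rasal1 0.32, and neither was called. Rasal1 also lost its call with the paired test (adjusted p = 0.096).

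In the list of RAF, MEK and ERK kinases and scaffolds, 2 of 9 were called lower and none higher. They were Mos (-2.71) and Map3k8 (-1.39), both kinases that can activate MEK independently of RAF. The difference of Mos was -1.39 with the normexp correction, and Map3k8 lost its call with the paired test (adjusted p = 0.14). Of the 8 other Sprouty, Spred and phosphatase genes tested, 1 was called higher and 3 lower, with a median of 0.01. Dusp10, a phosphatase of the stress-activated kinases p38 and JNK, rose by 2.13 on the log2 scale, a value from tumors 1 and 2 since the spot of tumor 3 was marked (2.41 with it kept), with a difference of 1.42 within slide 1 and no call with the paired test (adjusted p = 0.26), while the largest falls were those of Dusp1, an immediate early phosphatase of the nucleus (-1.73), and Dusp14 (-1.62). The difference of Dusp14 was -1.35 within slide 1, and its call was lost with the normexp correction (-0.61).

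The ERK-induced transcription factors and targets were mixed, with 4 of 18 called higher and 4 called lower and a median of -0.52. Ccnd1, the cyclin D1 gene that drives entry into the cell cycle, rose by 2.51 on the log2 scale, and Spp1, which encodes osteopontin, rose by 2.31. Spp1 varied among tumors, from 5.44 to 7.51, its difference within slide 1 was 0.99, and without tumor 2 it was 2.03 (limma adjusted p = 0.055), so that it was under 2-fold in the former and its adjusted p was above 0.05 in the latter. With the normexp correction it was 1.1, and Spp1 lost its call with the paired test (adjusted p = 0.13). The largest falls among the 18 tested were those of the immediate early gene Fos (-1.90) and of Ets1, an ETS transcription factor (-1.37), and the fall of Fos was under 2-fold with the normexp correction (-0.83).

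**Figure D3:**
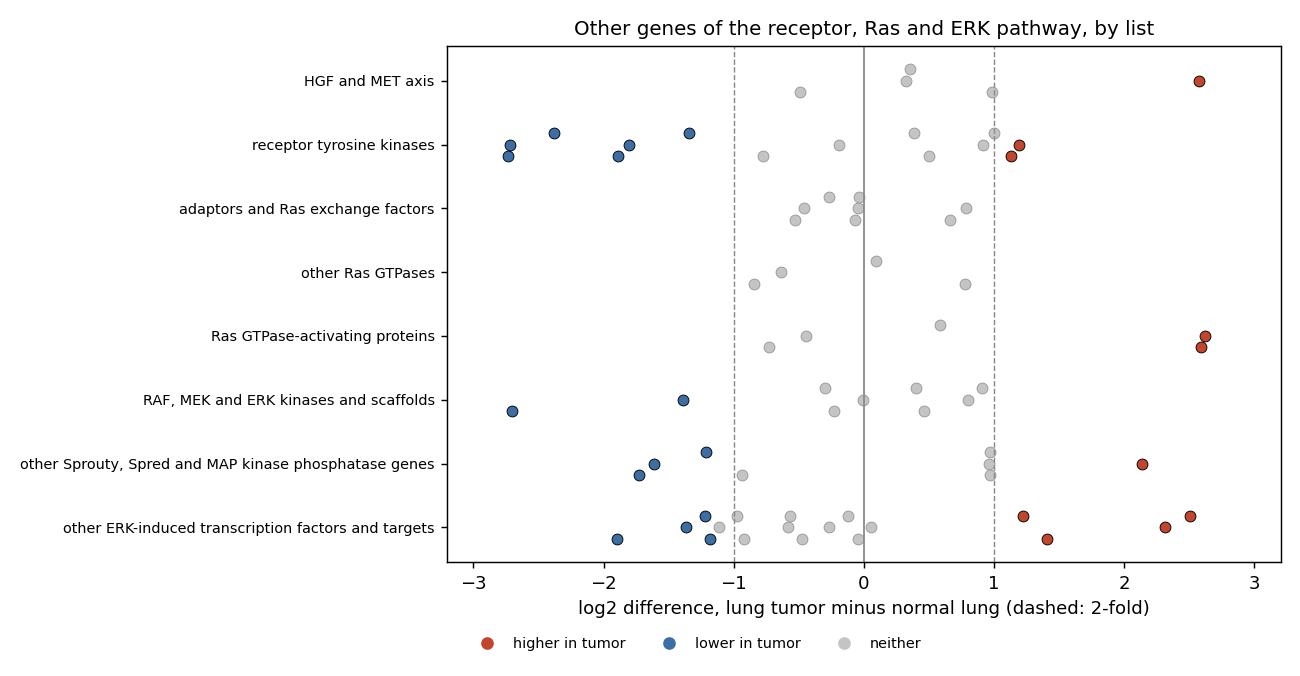
Log2 difference between lung tumor and normal lung for each of the 71 pathway genes tested, by list, with red for genes called higher, blue for genes called lower and grey for neither (vertical offsets within a list only separate points). Receptor tyrosine kinases hold 6 of the 15 genes called lower, and the lists of adaptors and of other Ras GTPases hold no call.

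Markers of the cell types that lung tissue can hold moved with the groups as well. Among endothelial markers 3 of 3 tested fell, Tek among them. The log2 of the summed intensities of the 5 with a probe ran from 17.83 to 17.89 in normal lung and from 15.54 to 15.56 in tumor. Summed signals below are on the same scale. Such a sum mostly follows its brightest gene, here Tek, with a mean of 17.29 in normal lung and 14.55 in tumor. It therefore does not show that all markers of a list moved. Among type 1 alveolar markers 3 of 4 fell, while 0 of 6 type 2 alveolar markers, including surfactant genes, was called, and their summed signal ran from 19.95 to 20.01 in normal lung and from 20.18 to 20.21 in tumor. Of the epithelial markers 2 of 5 rose, and of the proliferation markers 2 of 4 rose. Leukocyte markers rose in 1 of 3 tested, red blood cell markers fell in 2 of 3, platelet markers were called lower in 2 of 2, and no smooth muscle and fibroblast marker could be tested. One of these platelet markers, Ppbp, was not well above background on any tumor array, so its call rests on tumor values below background. With the normexp correction the difference of Ppbp was -0.51, under 2-fold. With marked spots kept, the surfactant gene Sftpc rose (1.14) and the leukocyte marker S100a8 fell (-2.12), the platelet marker Pf4 differed by 0.98, under 2-fold, and the summed platelet signal ran from 12.26 to 12.35 in normal lung and from 12.92 to 13.15 in tumor, that of leukocytes from 16.41 to 16.44 and from 16.54 to 16.91. Of 4 liver genes 4 fell, with a summed signal from 14.49 to 14.56 in normal lung and from 10.61 to 11.70 in tumor. These marker calls are with all lung arrays. With near-identical arrays counted once, calls were lost among type 1 alveolar, endothelial, epithelial, leukocyte, platelet and liver markers. Among those lost were the epithelial markers Krt8 (log2 difference then 1.08) and Krt18 (2.00) and the leukocyte marker Cd74 (1.00). The part of these cell types in the differences of Spry4, Hras and the pathway genes was not tested.

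In blood there was 1 array per group, so differences have no replicate check and no p value, and 2-fold serves only as a description. The log2 values were normalized over the 2 blood arrays alone. Of the members, 2 were at least 2-fold lower in NNK blood and none was 2-fold higher, against 19.1% lower and 23.1% higher of the 14452 probes compared. Nras was at 8.84 in control blood and 7.44 in NNK blood, a log2 difference of -1.40, which lay between -1.81 and -1.11 under other settings.

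Dusp6 was at 5.85 in control blood and 4.56 in NNK blood, a log2 difference of -1.29. Its size depended on the setting, from -2.36 to -0.45, and its processed signals before normalization were 37.2 and 38.7, close to the lowest signal well above background on the NNK array (31.1). Hras was not well above background on either blood array and was not compared there, and the other members differed by less than 2-fold. Met was at 6.74 and 7.13, Spry2 at 10.18 and 10.75, and Spry4 at 9.35 and 9.71 in control and NNK blood, and the sign for Spry2 and Spry4 turned under another setting (-0.02 and -0.06).

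To set lung beside blood, all 8 arrays were normalized together. Both Hras probes were not well above background on either blood array, so that only bounds can be given, by which normal lung was at least 10.7-fold above control blood by the probe for NM_001098241 and at least 9.59-fold by that for NM_001130441. These bounds depend on the scaling and were 2.62-fold and 2.32-fold when the arrays were scaled by their 75th percentile, an alternative added after the data were seen. Against NNK blood the bounds were 11.13-fold and 10.01-fold, and with scaling by the 75th percentile 2.164-fold and 1.919-fold. Dusp6 was at 13.27 on average in normal lung, 13.62 in tumor, 7.21 in control blood and 5.11 in NNK blood. Met ran the other way, with 5.43 in normal lung, 6.11 in tumor, 8.85 in control blood and 9.50 in NNK blood.

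For Spry4 and Nras the order of lung and blood depended on the scaling. Spry4 was at 12.48 in normal lung, 10.36 in tumor, 12.34 in control blood and 12.69 in NNK blood, so tumor was lowest and the other values lay within a narrow range, but with scaling by the 75th percentile normal lung was above the blood arrays by 0.88 and 0.94. Nras was at 11.69 and 11.24 in normal lung and tumor, 11.83 in control blood and 10.02 in NNK blood, and scaling by the 75th percentile put normal lung above control blood by 0.64 and above NNK blood by 2.20. Spry2 was at 12.04 in normal lung, 12.10 in tumor, 13.08 in control blood and 13.52 in NNK blood, with blood higher under both scalings, by which normal lung minus blood was -0.47 and -0.45 at the 75th percentile.

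**Figure D4:**
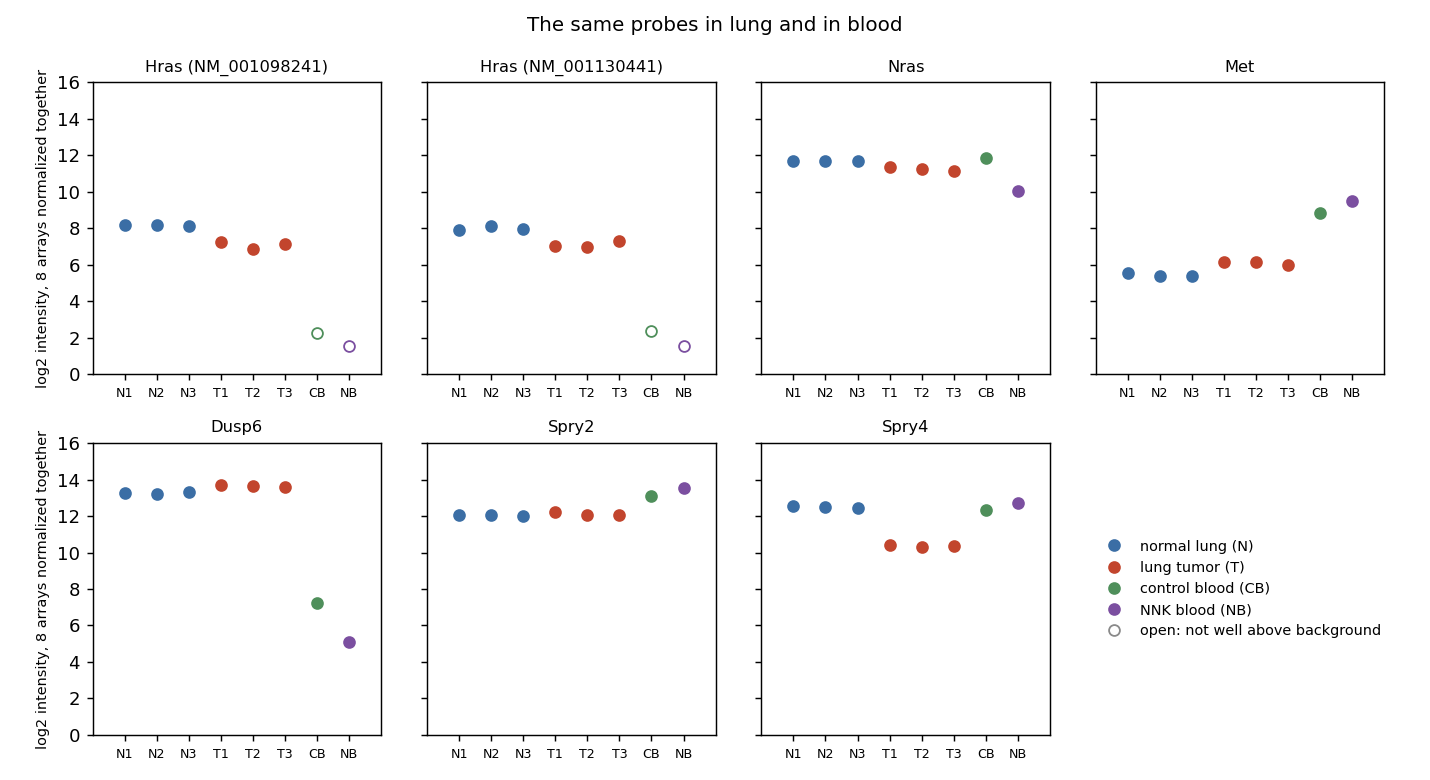
Log2 intensity of the member probes on all 8 arrays normalized together, with N for normal lung, T for lung tumor, CB for control blood and NB for NNK blood, and open circles for signals not well above background. Hras is well above background on lung arrays only, Dusp6 is at 7.21 and 5.11 in blood, and Spry4 is lowest in the 3 tumors.

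The mRNA probes whose pattern over the 8 arrays was most like that of Spry4, the member with the largest fall, were those of Hamp, the iron hormone hepcidin (Pearson's r = 0.999), Gng8, a G protein subunit (r = 0.997), and the chemokine Ccl5 (r = 0.994). They were the closest of 11169 probes compared, and the 8 arrays share slides and matched tissues, so r is a description only. With the 8 arrays normalized together, all 3 shared with Spry4 a level in blood near that of normal lung and a lower level in tumor. For Spry4 the closeness of normal lung and blood depended on the scaling, as given above. No member was called higher in tumor, so no like pattern was sought for a rise.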

How the data were processed

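RNA of 8 samples (3 lung tumors, 3 matched normal lungs and 2 blood clots) was measured on the 1-colour Arraystar rat lncRNA array. The authors deposited the spot intensities of Agilent Feature Extraction 10.5.1.1, background-subtracted and not normalized between arrays, and also deposited log2 values that they had quantile-normalized over all 8 arrays in GeneSpring. Members, gene lists, comparisons and alternatives were chosen with earlier results of these data known.

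Here, control spots were removed, and the remaining 42136 spots had their log2 processed signal quantile-normalized, lung and blood arrays separately (R 4.3.3, limma 3.58.1). Outlier-marked spots were left out, and remaining spots of a probe averaged. Probes needed more than 50% of their spots well above background on 3 lung arrays, or 1 blood array, and 2 values per group. Of 15803 probes passing in lung, 3332 could not be tested because of marks. For several probes of a gene, the one with the highest mean signal stood for it in the lists. Lung groups were compared with lmFit and eBayes, with the group as the only term. Of 15323 mRNA probes 14274 (93.2%) matched a gene of RefSeq (GRCr8).

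The text names all members, the genes with the 2 largest called rises and falls of each pathway list, and the 3 probes most like the member with the largest called rise and the largest called fall. Precision is limited by the number of arrays. The study describes the normal lungs as matched to the tumors, and the sample titles number both without naming pairs. The deviations of same-numbered arrays correlated at 0.14, -0.04 and 0.16. Only the group comparison was tested on simulated data, built from values already normalized and filtered, with independent noise on each array. The earlier steps were not tested in this way, and near-identical arrays were not simulated. The alternatives are in the closing section.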

Additional observations from a re-analysis of the deposited data

How the results depend on the processing

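Settings compared were normexp, scaling by the 75th percentile, lung and blood normalized together, a floor of 5, no filter and a stricter filter on dim probes, marked spots kept, the authors' values, the methods' t-test and its paired form, the replicate number or slide as a block, near-identical arrays counted once, the study's unadjusted threshold and each lung array left out. Marked spots kept together with another of these was added after seeing the data, for Dusp6 and Spry2. The slide block sets tumor 1 alone against the normal arrays, so only its differences are used. Members called lower were 2 under each other setting that could be run, except with near-identical arrays counted once, where Spry4 but not Hras was called. None was called higher under any of these. The replicate block changed no member call (adjusted p = 0.00084 for Spry4 and 0.0056 and 0.0079 for the Hras probes). The Hras probe for NM_001130441 was not called with the 75th percentile shift (-0.89), all 8 arrays normalized (-0.90), normexp (-0.95), the authors' values (-0.83) or the paired test (adjusted p = 0.052). Spry2 turned to -0.11 with the 75th percentile shift. The cause was not tested. Pathway genes called higher, 10 of 71 tested, were 17 of 88 with the authors' values, 14 of 88 with marked spots kept, 14 of 70 with the slide as a block (tumor 1 alone against the normal arrays, assumed to vary like the other arrays), 6 of 71 with the paired test and 4 of 82 with near-identical arrays counted once, where 8 in place of 15 were called lower, and leaving out an array gave 10 to 13 higher and 14 to 16 lower. Counting arrays once left 1 normal sample, so its spread was assumed to be that of the tumors. In blood, members 2-fold lower were 2, and 1 with normexp. Blood signals were weaker than lung signals, which limits Dusp6 and Hras there.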
